A study of Caenorhabditis elegans with 6 samples.

Results

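The cytochrome P450 genes and the UDP-glycosyltransferase genes of C. elegans were taken as all genes of the deposited RNA-seq table whose WormBase symbol begins with cyp- or ugt- followed by a number. They numbered 139 of 31180 genes, 72 cyp and 67 ugt, and no level or fold change was used to choose them. All 139 are annotated as protein-coding and have a position on the WBcel235 build. Another 2 such symbols of the gene name table had no row and were not analysed here.

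RNA was sequenced from whole animals of the wildtype strain N2 at the L4 stage, fed on OP50 bacteria. The HS animals were held at 35°C for 4 h and the CTRL animals stayed at 20°C, with 3 libraries per condition. The values used here are the authors' mean normalized count of each gene over all 6 libraries, HS and CTRL together. The table's values for the change between HS and CTRL are the authors' own comparison and were not used, so no difference between HS and CTRL is given for any gene. A mean over both conditions has no error here, and it can hide a gene that was high in one condition and low in the other.

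Cytochrome P450 enzymes are heme proteins that oxidise steroids, fatty acids and foreign compounds. They draw electrons from NADPH through a P450 reductase. UDP-glycosyltransferases join a sugar from a UDP-sugar donor to small lipophilic molecules, often at a group that a P450 enzyme has added, which makes the product easier to excrete. In C. elegans the intestine is a main site of both steps.

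Most genes of both families were read, and most lay below the middle of the genome. A mean of at least 10 normalized counts was found for 53 of 72 cyp genes (73.6%) and 58 of 67 ugt genes (86.6%), against 76.3% of 18768 protein-coding genes. A mean of at least 100 was found for 27 cyp and 38 ugt genes. A mean of at least 1000 was found for 1 cyp gene and 8 ugt genes. To compare levels between genes, each mean was divided by the coding length in kb. The median level per kb was 40.2 for cyp and 116 for ugt genes, against 128 for all protein-coding genes. With the protein-coding genes ranked by level per kb, the median cyp gene stood at percentile 34.4 and the median ugt gene at percentile 48.5. The levels of 17 cyp and 30 ugt genes exceeded the median of all protein-coding genes, and 0 cyp and 4 ugt genes stood in the highest 10%. These counts describe the pooled means and were not tested.

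The families were carried by a few genes each. The cyp means summed to 10932 normalized counts and the ugt means to 28492, which is 0.0331% and 0.0863% of the sum over all genes. Genes for ribosomal RNA held 46.9% of that sum although ribosomal RNA had been removed before sequencing, and the shares of the sum without them were 0.0624% for cyp and 0.163% for ugt. The 10 highest genes held 57.7% of the cyp sum and 56.4% of the ugt sum. No matching share was worked out for all protein-coding genes, so this is not set apart as a trait of the families.

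**Figure D1:**
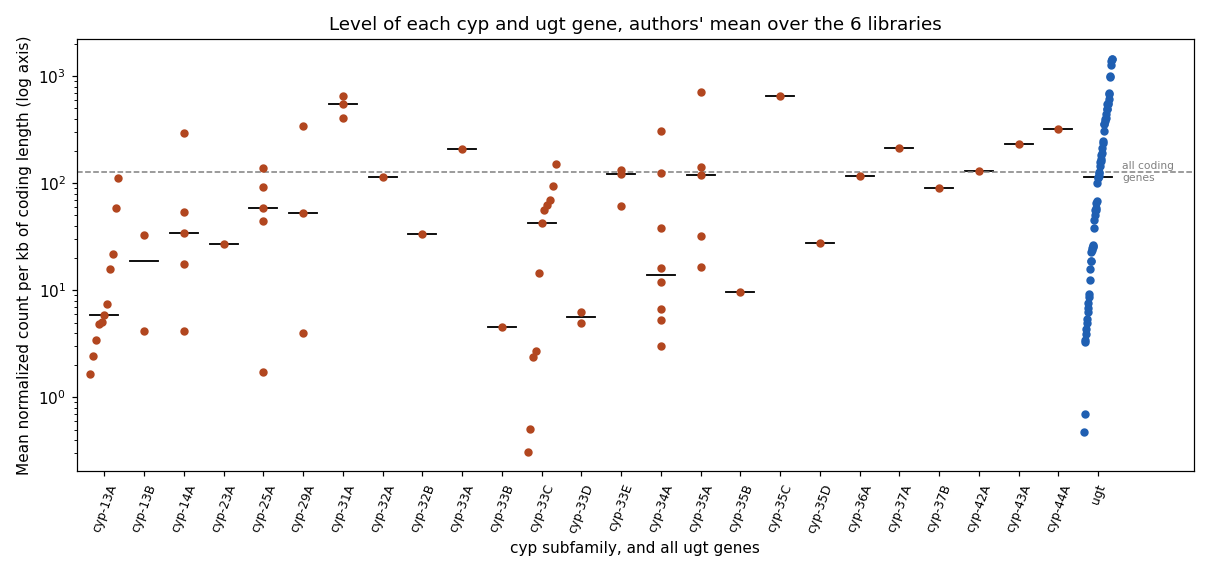
Each point is 1 gene, with the authors' mean normalized count per kb of coding length on a log axis, by cyp subfamily and for all ugt genes. Black bars are medians of each set, and the dashed line is the median of all protein-coding genes (128). The cyp-31A genes and cyp-35C1 stand above the line, and the cyp-13A and cyp-33D genes all lie below it.

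The highest cyp gene was cyp-35A2, with a mean of 1047 normalized counts and 706 per kb (chromosome V, 7362319 to 7364182). The cyp-35A genes are intestinal P450 genes known for their response to xenobiotics and for a part in fat storage. The other 4 cyp-35A genes were far lower, between 16.7 per kb for cyp-35A1 and 143 per kb for cyp-35A3. The cyp-35A1 gene is the neighbour of cyp-35A2 on chromosome V (7359929 to 7361773), yet its level per kb was the lowest of the subfamily. Among the related single genes, cyp-35C1 followed cyp-35A2 closely with 657 per kb (mean 976). By contrast, cyp-35D1, whose product hydroxylates the anthelmintic thiabendazole, had 28.0 per kb, and cyp-35B1 had 9.73 per kb.

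All 3 genes of cyp-31A were high. Their levels were 647 per kb for cyp-31A5, 553 for cyp-31A2 and 409 for cyp-31A3, with means of 598, 822 and 607 normalized counts. The cyp-31A2 and cyp-31A3 genes are known for their part in making the lipid layer of the eggshell, and work together with the reductase emb-8. They are close copies on chromosome IV, so how the reads were divided between them is uncertain. The cyp-31A5 gene has a shorter annotated coding sequence than either, which raises its level per kb, and a gene on the opposite strand (Y62E10A.19) overlaps it.

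The remaining cyp genes in the highest 8 came from 3 subfamilies. The cyp-29A2 gene had 346 per kb, and its relatives cyp-29A3, whose product makes epoxides of polyunsaturated fatty acids, and cyp-29A4 had 53.0 and 4.02 per kb. The cyp-44A1 gene, the P450 of the mitochondrial type in this animal, had 324 per kb. The cyp-44A1 gene overlaps npp-24 on one strand, and reads from any exon bases that the 2 genes share cannot be told apart. The cyp-34A8 gene had 311 per kb, the highest of 8 cyp-34A genes, and the lowest of them, cyp-34A1, had 3.03.

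The larger cyp subfamilies were mostly low. All 11 cyp-13A genes lay below the median of all protein-coding genes, with a median of 5.94 per kb and a range from 1.65 (cyp-13A8) to 113 (cyp-13A2). In this subfamily 5 of 11 genes reached a mean of 10. The 11 cyp-33C genes had a median of 42.3 per kb, with cyp-33C9 highest (153) and cyp-33C11 lowest of all 139 genes (0.311). The mean of cyp-33C11 was 0.461 normalized counts. The 2 cyp-33D genes had 4.95 and 6.29 per kb, and cyp-33B1 had 4.53. The 3 cyp-33E genes were closer together, between 61.5 per kb (cyp-33E3) and 133 (cyp-33E2, whose product metabolises polyunsaturated fatty acids). The annotated coding sequence of cyp-33E3 is 708 bases long, against 1482 for the other cyp-33E genes, and the means of the subfamily ran between 43.6 and 196 normalized counts. The 5 cyp-14A genes ran between 4.17 (cyp-14A3) and 295 per kb (cyp-14A5). The 5 cyp-25A genes ran between 1.74 (cyp-25A6) and 140 per kb (cyp-25A2). The 2 cyp-13B genes had 4.20 (cyp-13B2) and 33.2 per kb (cyp-13B1). Of the 11 subfamilies with more than 1 gene, 7 had a highest gene over 10 times above the lowest per kb, and the ratio was largest in cyp-33C (491). That ratio rests on cyp-33C11, which had 4 reads in all libraries together.

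The other subfamilies with a single gene lay on both sides of the median of all protein-coding genes. These were cyp-43A1 (231 per kb), cyp-37A1 (215), cyp-33A1 (207), cyp-42A1 (131), cyp-36A1 (118), cyp-32A1 (114), cyp-37B1 (89.8), cyp-32B1 (33.8) and cyp-23A1 (27.0). The cyp-36A1 gene acts in the behavioural response to low oxygen. Its annotated position, chromosome I, 8341682 to 8346023, is overlapped by figo-1 on the opposite strand. An opposite-strand gene also overlaps cyp-43A1 (C41G11.1), cyp-37A1 (F01D5.8) and cyp-37B1 (F28G4.2).

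The ugt genes are numbered without subfamilies, and the highest 4 were close to each other. The ugt-62 gene had 1461 per kb (chromosome III, 4537281 to 4540623), ugt-22 had 1444 (chromosome IV, 13639260 to 13644567), ugt-44 had 1376 (chromosome IV, 10469741 to 10471899) and ugt-26 had 1268 (chromosome I, 4721131 to 4723982). Their means were 2328, 2314, 2238 and 2013 normalized counts, each above that of the highest cyp gene, cyp-35A2. The next were ugt-47 with 995 per kb, ugt-46 with 974, ugt-29 with 695 and ugt-64 with 677. These 8 ugt genes lie on 5 chromosomes. An opposite-strand gene overlaps ugt-22 (srz-29), ugt-47 (srd-49) and ugt-64 (C07G3.10). At the other end, 9 ugt genes had a mean under 10, and the lowest were ugt-35 with a mean of 0.770 and ugt-38 with 1.09.

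In both families 20 genes in all are overlapped by another protein-coding gene, and 39 by a gene of any type except piRNA genes. Overlap was taken between whole genes from start to end, introns included, and whether exons overlap was not checked. The cyp-34A8 gene, for example, is overlapped by 2 genes that are not protein-coding. The libraries keep the strand of the RNA, but the sources used here do not say whether the counting used it, nor how reads that fit several gene copies were treated. Levels of overlapped genes and of close copies are therefore uncertain by an unknown amount.

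Many of these genes sit next to each other. Chromosome V held 81 of the 139 genes (58.3%), 39 cyp and 42 ugt, against 23.8% of all protein-coding genes. Neighbouring genes of the families with no more than 2 other protein-coding genes between them were taken as an array where there were at least 3. This gave 11 arrays with 51 genes, 26 cyp and 25 ugt, and no array held both families. Genes of one array were not at one level. The ratio of the highest to the lowest level per kb ran from 3.16 to 187. The largest ratio rests on cyp-33C6, which had 5 reads in all libraries together.

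The 8 cyp-13A genes of the array on chromosome II (9779181 to 9807569) differed up to 68.3-fold, between cyp-13A2 and cyp-13A8. On chromosome III (3832591 to 3839735) the 3 cyp-25A genes were most alike, with 140 per kb for cyp-25A2 and 44.2 for cyp-25A1. On chromosome V (2236140 to 2252591), 5 cyp-33C genes gave the widest spread, with 94.6 per kb for cyp-33C7 and 0.506 for its neighbour cyp-33C6. The 6 cyp-34A genes on chromosome V (3955701 to 3972991) are all on the minus strand, and cyp-34A8 stood 58.4-fold above cyp-34A5. The 4 cyp-14A genes on chromosome X (13265041 to 13284197) had 53.4 per kb for cyp-14A2 and 4.17 for cyp-14A3.

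Among the ugt arrays, the 4 genes on chromosome I (4721131 to 4735276) are all on the plus strand, and ugt-26 had 67.3 times the level per kb of the next gene, ugt-27. The 8 ugt genes on chromosome V (4887165 to 4911399) had their highest gene, ugt-12 (544 per kb), at one end and ugt-13 (491) at the other, with ugt-10 (3.33) between them. In the array that begins at 12790676 on the same chromosome, ugt-6 had 236 and ugt-3 had 3.44 per kb. In that which begins at 12820260, ugt-16 had 127 and ugt-18 had 7.68 per kb. The array at 7157142 held ugt-41 (354 per kb) with ugt-39 and ugt-36, which had 25.9 and 25.4. All 3 genes of the array at 7139475 were low, between 0.698 for ugt-38 and 12.6 per kb for ugt-37, and ugt-37 and ugt-40 overlap on one strand.

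**Figure D2:**
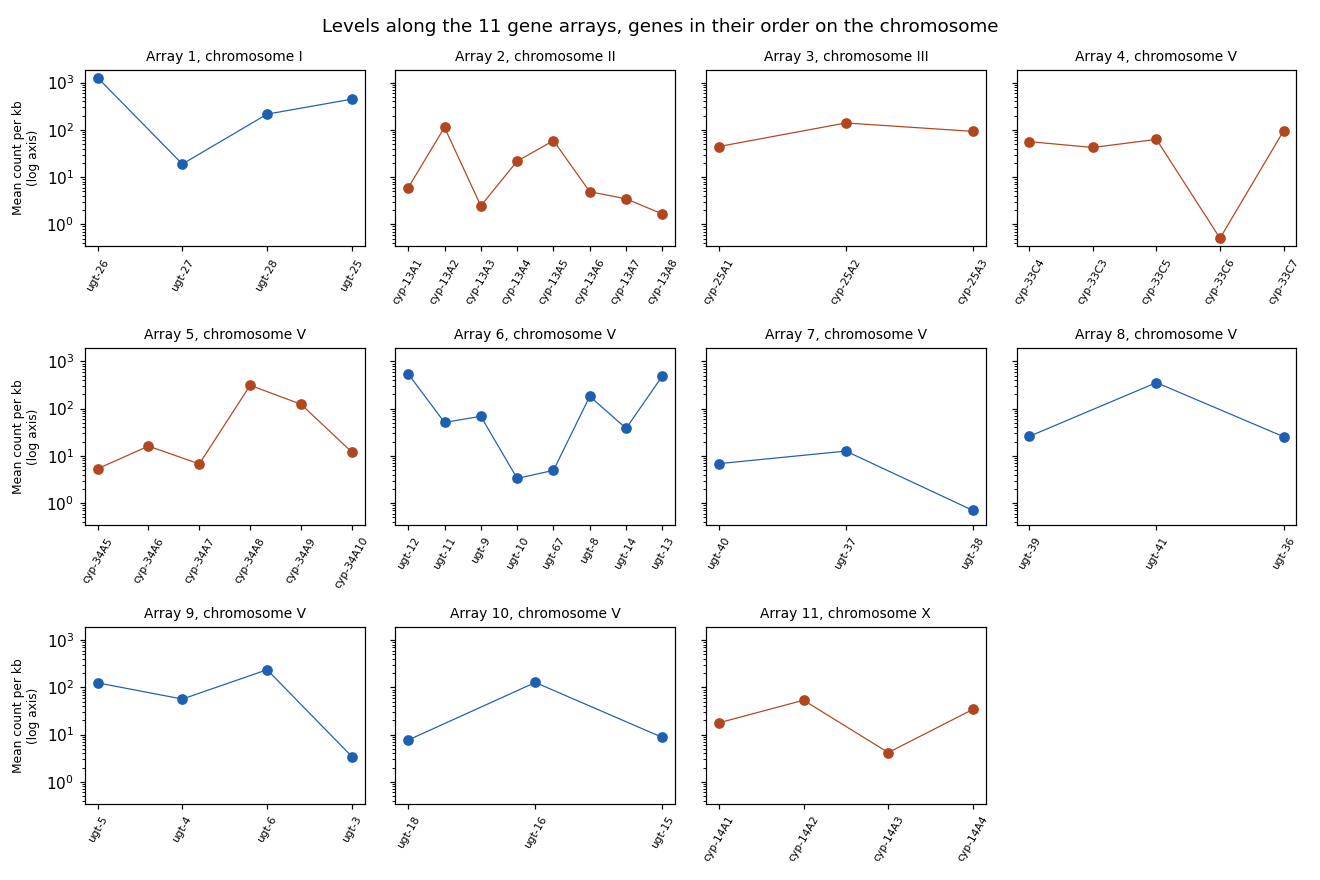
Each panel is 1 array, with its genes in chromosome order and the authors' mean normalized count per kb of coding length on a shared log axis (cyp arrays in red, ugt arrays in blue). Neighbours differed by up to 187-fold (cyp-33C7 and cyp-33C6), and the 3 cyp-25A genes were the most alike at 3.16-fold. The ratio of 187 rests on cyp-33C6, which had 5 reads in all libraries together.

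The reads behind a mean could be worked out for the low genes. A mean is a sum of whole reads in 6 libraries, each divided by that library's scaling factor, and it was deposited with 15 significant digits. For all 74 genes with a mean under 100, exactly 1 set of 6 whole numbers gave the deposited value, and for 70 of them (43 cyp and 27 ugt) this was still so at 3 times the tolerance. The libraries are named A to F, in order of falling scaling factor (1.47, 1.44, 1.43, 0.923, 0.729 and 0.536). The files do not say which of them are HS and which are CTRL, so they stand as 6 libraries in no group. A difference between them may be heat shock, the spread between animals or counting error, and these cannot be told apart. A count of 3 reads is worth 2.05 normalized counts in library A and 5.60 in library F, which limits what a library at 0 shows.

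The values of these low genes differed between libraries. Of the 70, 22 had at least 1 library at 0 reads, and 5 had under 10 reads in all libraries together. Among the 48 genes read in every library, the highest normalized count was at least 10 times the lowest in 20 genes and under 3 times the lowest in 9. These counts were not made for all protein-coding genes, so they are not set apart as a trait of the families. Library E held the highest value for 27 of the 70 genes, and over all protein-coding genes with a mean between 1 and 100 it held the highest for 35.0%. A library at 0 was found for 28.2% of the cyp and ugt genes in that range of means, against 44.4% of all protein-coding genes in it. In that range the library with the most held a median of 36.4% of a gene's normalized counts in the cyp and ugt genes and 36.3% in all protein-coding genes. Split at means of 10, 30 and 60, the range held 25, 16, 16 and 14 cyp and ugt genes. A library at 0 was found for 72.0%, 6.25%, 0% and 7.14% of them, against 86.6%, 22.8%, 7.14% and 3.39% of all protein-coding genes. The medians were 45.1%, 33.8%, 29.5% and 30.6%, against 50.1%, 32.9%, 28.6% and 26.4%.

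Of the 70 genes, ugt-45 and cyp-14A2 varied least. The ugt-45 gene had 150, 167, 163, 54, 68 and 37 reads in libraries A to F, which is 58.5 to 116 normalized counts. The cyp-14A2 gene had 101, 96, 111, 92, 72 and 33 reads, or 61.6 to 99.7 normalized counts. In both the highest library was under 2 times the lowest. The other genes described from here on were chosen after their values were seen, unless they are the lowest or the highest of an array or subfamily.

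The cyp-35 genes were uneven between libraries. The cyp-35D1 gene had 59, 5, 30, 41, 101 and 2 reads in libraries A to F, which is 40.3, 3.46, 21.0, 44.4, 138 and 3.73 normalized counts. The cyp-35A1 gene had 16, 0, 1, 12, 56 and 25 reads, or 10.9, 0, 0.700, 13.0, 76.8 and 46.7 normalized counts. Library E was thus the highest for both genes, and library B was the lowest by a few reads at most. For cyp-35D1, B had 3.46 normalized counts against 3.73 in F, and for cyp-35A1, B had 0 reads against 1 in C. The cyp-35A4 gene was steadier, with 81, 76, 26, 44, 52 and 21 reads, a highest value 3.92 times the lowest and again the most in library E (71.3 normalized counts). The cyp-35B1 gene was also highest in library E (34.3 normalized counts) but lowest in library C (2.10). The cyp-23A1 gene had 28, 6, 20, 60, 81 and 25 reads, or 19.1, 4.15, 14.0, 65.0, 111 and 46.7 normalized counts, which also put E highest and B lowest. Over all protein-coding genes with a mean between 1 and 100, library E held the highest value for 35.0%. A highest value in E is therefore not set apart as a trait of these genes.

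Some genes owed most of their mean to 1 library. The cyp-33B1 gene had 0, 0, 3, 5, 24 and 0 reads, so library E held 81.4% of its normalized counts. The cyp-14A3 gene, the lowest of its array, had 3, 41, 8, 0, 1 and 0 reads, and library B held 75.9%. The ugt-57 gene had 15, 0, 1, 2, 30 and 0 reads, with 75.8% in library E. The cyp-34A1 gene had 1, 0, 0, 4, 15 and 1 reads, with 74.9% in library E. The means of these 4 genes are therefore mostly the value of a single library. All 4 means lay between 1 and 10, and how many genes in that range have a share this high was not counted. There the library with the most held a median of 50.1% over 3257 protein-coding genes and 45.1% over the cyp and ugt genes. In the array on chromosome II, cyp-13A4 had 11, 43, 27, 16, 13 and 60 reads, and library F held 55.1% (112 normalized counts, against 7.50 to 29.8 in the other libraries).

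The widest range above 0 was that of ugt-14, a gene of the 8-gene array on chromosome V. It had 27, 1, 14, 58, 117 and 60 reads, or 18.4, 0.692, 9.80, 62.8, 160 and 112 normalized counts. The ratio of 232 between libraries E and B rests on the single read in library B. In the same array ugt-10 and ugt-67 were low in all libraries, with at most 10.9 and 20.6 normalized counts.

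The lowest genes of the arrays differed in their reads. Some had few reads in any library. The cyp-33C6 gene had 3, 0, 0, 1, 1 and 0 reads. Its neighbour cyp-33C5 had 116, 61, 66, 111, 61 and 100 reads, so their normalized counts did not overlap (0 to 2.05 for cyp-33C6 and 42.2 to 187 for cyp-33C5). The ugt-38 gene had 0, 0, 0, 1, 4 and 0 reads, and cyp-13A8 had 0, 0, 0, 2, 4 and 4. The ugt-3 gene had 5, 0, 14, 1, 8 and 4 reads, and cyp-34A5 had 16, 20, 10, 0, 9 and 2. By contrast, cyp-25A1, the lowest of its array, had 28, 18, 39, 98, 125 and 34 reads, or 12.5 to 171 normalized counts, and ugt-36 had 47, 22, 28, 41, 64 and 24 reads, or 15.2 to 87.7 normalized counts. The ugt-27 and ugt-18 genes, the lowest of theirs, reached 66.1 and 38.1 normalized counts in their highest library. The 2 lowest genes of the families, cyp-33C11 and ugt-35, had 4 reads each: all in library B for cyp-33C11, and 3 in D and 1 in E for ugt-35.

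**Figure D3:**
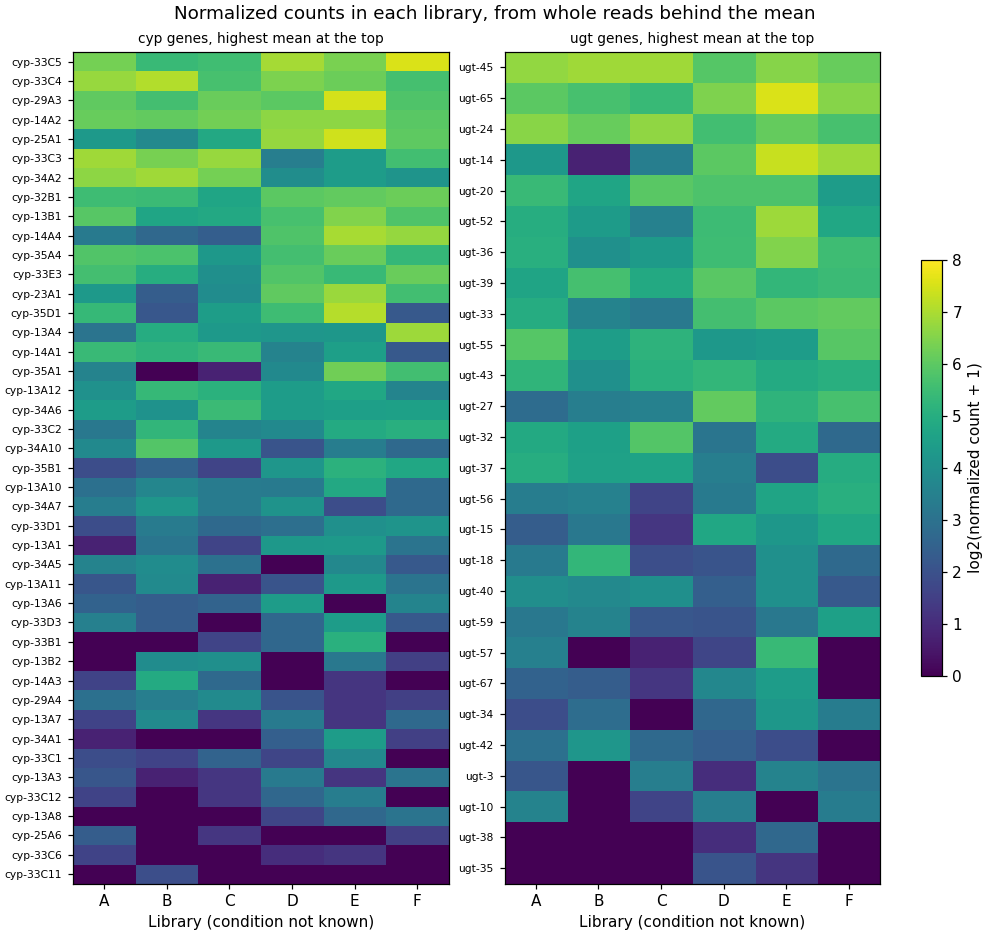
Each row is 1 of the 70 genes (cyp on the left, ugt on the right) and each column 1 of the 6 libraries A to F, with the normalized count, as log2 of the count plus 1, in colour. The condition of each library is not known. The ugt-45 gene stays between 58.5 and 116 normalized counts, while ugt-14 runs between 0.692 and 160.

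Genes that serve the 2 families were set beside them, from a list of 20 that includes partners, sugar donors, regulators and other detoxification enzymes. Per kb of coding length, 15 of the 20 lay above the median of all protein-coding genes. The electron donors were high. The P450 reductase emb-8 had 956 per kb, above every cyp gene, and the cytochrome b5 genes cytb-5.1 and cytb-5.2 had 2454 and 3444. Of the genes that make the sugar donor, sqv-4 (UDP-glucose dehydrogenase) had 1249 per kb and K08E3.5, a UDP-glucose pyrophosphorylase now named rml-1, had 1959. The daf-9 gene is a P450 of steroid hormone synthesis that carries no cyp symbol, and it had 27.4 per kb.

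Regulators of these genes ranged widely. The nuclear receptor genes nhr-86 and nhr-8 had 453 and 323 per kb, and nhr-176, the receptor that drives cyp-35D1 after thiabendazole, had 74.8. The aryl hydrocarbon receptor gene ahr-1 had 5.35 per kb and its partner aha-1 had 175. The stress regulator skn-1 had 1076 per kb, the Mediator subunit gene mdt-15 had 894 and the intestinal GATA factor gene elt-2 had 223. Among the other enzymes, 4 of the 5 flavin monooxygenase genes lay above the median, with 986 per kb for fmo-4, 243 for fmo-5, 213 for fmo-3 and 160 for fmo-1, while fmo-2 had 2.41. The sulfotransferase gene ssu-1 had 11.1 per kb.

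The tissues of a whole animal were all present in the pooled means. The intestinal markers elt-2 and ges-1 had means of 289 and 815 normalized counts. Markers of muscle, pharynx, neurons, hypodermis, germline and sperm were read as well, with means from 67.3 (unc-119) to 97339 (unc-54). Genes known as markers of the adult hermaphrodite were also high: vit-2 had a mean of 43276, vit-6 of 78905 and the adult collagen gene col-19 of 20792, although the labels give the L4 stage for every library. The part of the animals' age in the levels of cyp and ugt genes was not tested. In whole animals, a lower level can mean fewer cells of a tissue or less RNA per cell, and the values do not separate these.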

How the data were processed

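Total RNA of whole L4 animals was depleted of ribosomal RNA (Ribo-Zero Gold) and made into stranded TruSeq libraries, 3 for HS and 3 for CTRL. After trimming (fastq-mcf), the authors mapped reads to WBcel235 with STAR, assigned them to Ensembl 88 genes with FeatureCounts and ran DESeq2, and tool versions are not given in the sources used here. The signal value used, deposited by the authors, is the mean over the 6 libraries of counts divided by DESeq2 size factors. Columns with the authors' fold change, its error, its statistic and its p-values hold their own comparison and were not used, so no test was run and no replicate error is given.

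Symbols, positions and the longest coding sequence of each gene were taken from Ensembl release 115 (WBcel235) and a gene name table. The plan named RefSeq protein lengths and sequence signatures, but no protein, promoter or genome sequence was used here, so coding lengths stand in for them. Reads per library were found from the value of 1 read in each library and a search for whole numbers that give the deposited mean. Of 7709 protein-coding genes with a mean between 1 and 100, 7604 gave 1 set, 104 several and 1 none. Tested on 72 simulated means at the levels of the cyp and ugt genes, the search gave the right single set for 71, no single set for 1 and a wrong one for 0. The simulated means were made with the same values of 1 read that the search used, so errors in those values were not tested. Library totals are not listed, so depth is known only as scaling factors.

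The genes and lists were chosen with earlier results of these data known. In each family the 8 genes highest per kb, the 3 highest in unscaled mean, the highest and lowest gene of each array, the range of each cyp subfamily and a list of partner genes were named. The alternatives were minimums of 1 and 50 normalized counts, medians of genes with a mean of at least 10, protein-coding genes as the denominator of shares, ranks by unscaled mean, arrays with 0 or at most 5 genes between neighbours and a tolerance 3 times as wide. Lengths of all exons, shares without genes for ribosomal RNA and leaving out each library in turn were added after the data were seen. Python 3.11.15, pandas 2.3.3, numpy 2.4.6, numba 0.67.0 and matplotlib 3.10.9 were used, with a random seed of 7.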

Additional observations from a re-analysis of the deposited data

How the results depend on the processing

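With only the genes that have a mean of at least 10, the median cyp level was 69.3 per kb, against 40.2 for all cyp genes, and the ugt median was 153. With protein-coding genes as the denominator, the shares were 0.0697% for cyp and 0.182% for ugt, and without genes for ribosomal RNA they were 0.0624% and 0.163%, against 0.0331% and 0.0863% of all genes. The other alternatives moved no count by over 1.5 times. At least 1 normalized count was found for 70 cyp and 66 ugt genes, and at least 50 for 39 and 44. There were 10 arrays with no other gene between neighbours and 11 with at most 5. The 8 highest cyp genes were the same by unscaled mean and per kb of all exons, and of the 8 highest ugt genes 8 and 7 were shared. At 3 times the tolerance, ugt-4, ugt-11, cyp-13A5 and cyp-25A4 no longer had a single set of reads. With each library left out in turn, 15 to 18 genes, against 20, had a highest library at least 10 times the lowest. No paired analysis was possible because libraries A to F carry no replicate number. The levels are the authors' means and were not recomputed without a library. Genes of a mean over 100 have no value per library, and few reads limit the lowest.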

Other observations

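In 36 of the 70 genes with values per library, every library had at least 3 reads. In 8 of these 36 the sorted normalized counts broke apart, with a step of at least 3-fold between neighbouring values (22.2%), against 13.4% of 3537 protein-coding genes with a mean under 100 and at least 3 reads in every library. The step set a single library apart for cyp-13A4 (F, above), cyp-34A10 (B, above, 57.4 against at most 18.9 in the others), cyp-23A1 (B, below) and ugt-56 (C, below, 2.10 against at least 8.67 in the others). In the other 4 genes it set libraries A, B and C on one side and D, E and F on the other (11.1% of the 36, against 3.34% of the 3537). These shares were not tested, and 4 genes are few. The 36 genes had a single set of reads at 3 times the tolerance, while the 3537 needed one only at the tolerance itself. The groups were also not matched for level. The cyp-13A5 gene, left out of the 36 by this rule, had 177 and 190 normalized counts in libraries B and F and at most 56.7 in the others.

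The cyp-34A2 gene had 146, 165, 113, 13, 15 and 9 reads in libraries A to F, which is 99.6, 114, 79.1, 14.1, 20.6 and 16.8 normalized counts. The cyp-14A4 gene had 13, 8, 6, 50, 90 and 57 reads, or 8.87, 5.54, 4.20, 54.2, 123 and 106 normalized counts. The cyp-35B1 gene had 4, 7, 3, 16, 25 and 14 reads, or 2.73, 4.84, 2.10, 17.3, 34.3 and 26.1 normalized counts. The ugt-27 gene had 9, 14, 15, 61, 26 and 27 reads, or 6.14, 9.69, 10.5, 66.1, 35.6 and 50.4 normalized counts. The value was higher in A, B and C for cyp-34A2 and lower there for the other 3. Libraries A, B and C also have the 3 largest scaling factors. Nothing in the files used here puts a library in HS or CTRL, so these steps are values of 6 libraries in no group, and neither heat shock nor depth can be named as their source. Within the array on chromosome X, cyp-14A1 had 62, 52, 60, 10, 16 and 2 reads, or 42.3, 36.0, 42.0, 10.8, 21.9 and 3.73 normalized counts. These were highest in the 3 libraries where cyp-14A4, at the other end of the array, was lowest. Of the genes between them, cyp-14A2 ran between 61.6 and 99.7 normalized counts. The other, cyp-14A3, had 28.4 in library B and at most 5.60 elsewhere.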
